A study of Mus musculus with 12 samples.

Results

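Kinesins are motor proteins that walk along microtubules, and 44 of the 24490 genes listed for mouse dorsal root ganglia (DRG) encode a kinesin heavy chain or a kinesin light chain. They were chosen by symbol alone, as every gene named Kif, Kifc or Klc with a member number, and with no filter on expression. Of these, 21 were grouped as transport kinesins, 13 as kinesins of dividing cells, 6 as kinesins of cilia and 4 as others. Kif4-ps, Kifap3 and Kifc5b did not match the naming rule and were left out.

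All 12 samples came from adult male C57Bl/6 mice with no transgene and no injury, and 4 samples were sequenced in each of 3 groups. Intact DRG were frozen whole, with 1 mouse per sample. Unsorted DRG were dissociated with dispase, collagenase and DNAse and then lysed without sorting, with 2 mice per sample. MACS-sorted DRG were dissociated in the same way and passed over a magnetic column that holds back cells bound by antibodies against non-neuronal cells, with 8 mice per sample. The MACS-sorted against unsorted comparison asks which transcripts mark the nociceptor-rich sorted cells, and the unsorted against intact comparison sets dissociated beside whole ganglia. Unsorted samples were also filtered, spun and pooled from more mice than intact samples, so that comparison does not isolate dissociation. Unsorted and MACS-sorted samples are pools, so that the spread between them is a spread between pools of mice.

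Sensory neurons carry vesicles, mitochondria and RNA over very long axons. Most kinesins move toward microtubule plus ends, which point away from the cell body in axons, and each family carries its own set of cargoes, with kinesin-1 built from heavy chains and light chains. Another set of kinesins builds and moves the mitotic spindle and separates daughter cells, work that an adult neuron no longer does, and further members build or signal through cilia.

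Expression was measured as FPKM, fragments per kilobase of transcript scaled to the total of mapped fragments, which allows levels to be compared between genes per length. The depth estimated from the spacing of low FPKM values, with fragments of 150 bases assumed, was 13400000 to 19400000 fragments per sample. Intact replicate 1 stood apart from the other intact samples. Of 19 transport kinesins with a mean of at least 1 FPKM in any group, 17 were lowest there among the intact samples, with a median ratio of 0.706 to the mean of the other 3, whereas Kif1c was highest there with a ratio of 1.95. The 8 pan-neuronal markers checked were all at 27.0 FPKM or more in every sample. The 5 markers of large-diameter neurons summed to 771 to 962 FPKM in unsorted and 64.9 to 129 FPKM in MACS-sorted samples. Satellite glia markers summed to 401.5 to 545 FPKM in unsorted and 83.8 to 126 FPKM in MACS-sorted samples, and Schwann cell markers to 1890 to 3119 FPKM and 516 to 1193 FPKM. These sums hide a deeper fall of most markers. In MACS-sorted samples Glul, at 82.3 to 111 FPKM, made up most of the first sum, and Pmp22 and Mbp most of the second. The median log2-fold change against unsorted samples was -5.59 over the 6 satellite glia markers and -4.26 over the 6 Schwann cell markers. Red blood cell markers ran the other way, from 112 to 399.5 FPKM in unsorted to between 1678 and 15360 FPKM in MACS-sorted samples. From the FPKM of bulk samples such as these, fewer cells of a type and less RNA per cell cannot be told apart. The study's own cell counts, made apart from the sequencing, found neurons to be a small part of unsorted cells and nearly all sorted cells.

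The 21 transport kinesins spanned a wide range of levels, from Klc3, listed at 0, to Klc1, and the median of their group means was 19.8 FPKM for whole ganglia, 19.9 FPKM after dissociation and 22.9 FPKM after sorting. They summed to 1254 FPKM in intact replicate 1 and to 1681 to 1735 FPKM in the other intact samples, to 1869 to 2076 FPKM in unsorted samples and to 1674 to 2138 FPKM in MACS-sorted samples. They made up 96.9% to 98.2% of the summed FPKM of all 44 kinesin genes. By the limit of more than 5 FPKM in all 4 samples, 17 of the 21 counted as expressed in whole ganglia, 18 after dissociation and 15 after sorting. By contrast, 0 of the 13 kinesins of dividing cells reached that limit in any group.

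**Figure D1:**
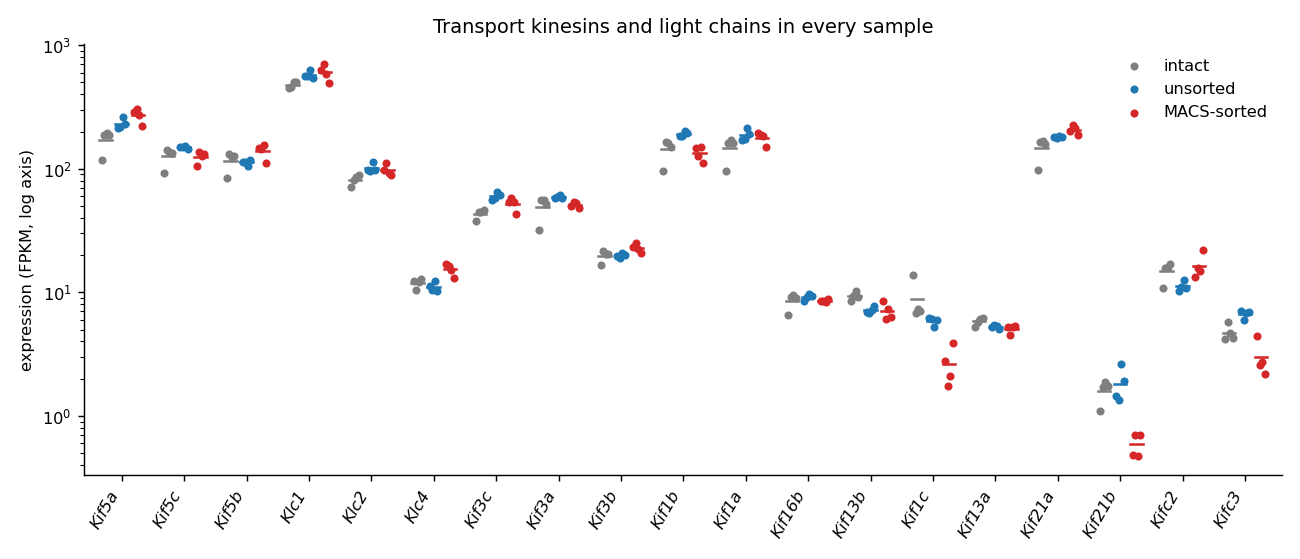
Expression in FPKM (log axis) of the 19 transport kinesins with a mean of at least 1 FPKM in any group, with 1 point per sample and a bar at the mean of each group of 4. Klc1 lies highest in all 3 groups, intact replicate 1 lies below the other intact samples for most genes, and every MACS-sorted point lies below all others for Kif1c and Kif21b and below all unsorted points for Kifc3.

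Klc1, the main light chain that links kinesin-1 to its cargo, was the highest of all kinesin genes in every group, averaging 478 ± 28.2 FPKM in whole ganglia, 576 ± 38.7 after dissociation and 604 ± 89.5 after sorting (SD, n = 4 each). It ranked 51st, 40th and 36th among all 24490 genes in the 3 groups. In each group Klc1 was followed by Kif5a without overlap between samples. In intact and MACS-sorted samples the next gap without overlap lay below Klc2, which ranked 8th among the kinesins. Between them lay 7 genes, from Kif5a to Klc2, whose neighbours by mean overlapped in range across samples. Within single samples most of this order held. In every intact sample all neighbours but Kif1a and Kif21a kept it, and in every MACS-sorted sample all but Kif1b and Kif5c. In unsorted samples, where the spread was smaller, Kif5a lay above Kif1b, Kif21a above Kif5c and Kif5c above Kif5b without overlap between samples.

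With limma on log2(FPKM + 0.1) and Benjamini-Hochberg adjustment over all 12038 genes tested, 26 kinesin genes were tested between MACS-sorted and unsorted samples. Calls needed 3 things, an adjusted p under 0.05, group means that differed by more than 0.5 as a log2 ratio, and over 5 FPKM on average in whichever group was higher. By these 3 criteria 1 kinesin gene, Kifc2, was higher in MACS-sorted samples, against 8.15% of all genes tested, and 4, Kif19a, Kif1b, Kif1c and Kifc3, were lower, against 12.5%. By adjusted p alone 9 were higher and 8 lower, where 18.8% and 27.7% of all genes tested were. The median log2-fold change was -0.04 over the 26 kinesin genes and -0.04 over all genes tested. Among the 19 transport members tested, 5 were higher, 6 lower and 8 did not pass.

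**Figure D2:**
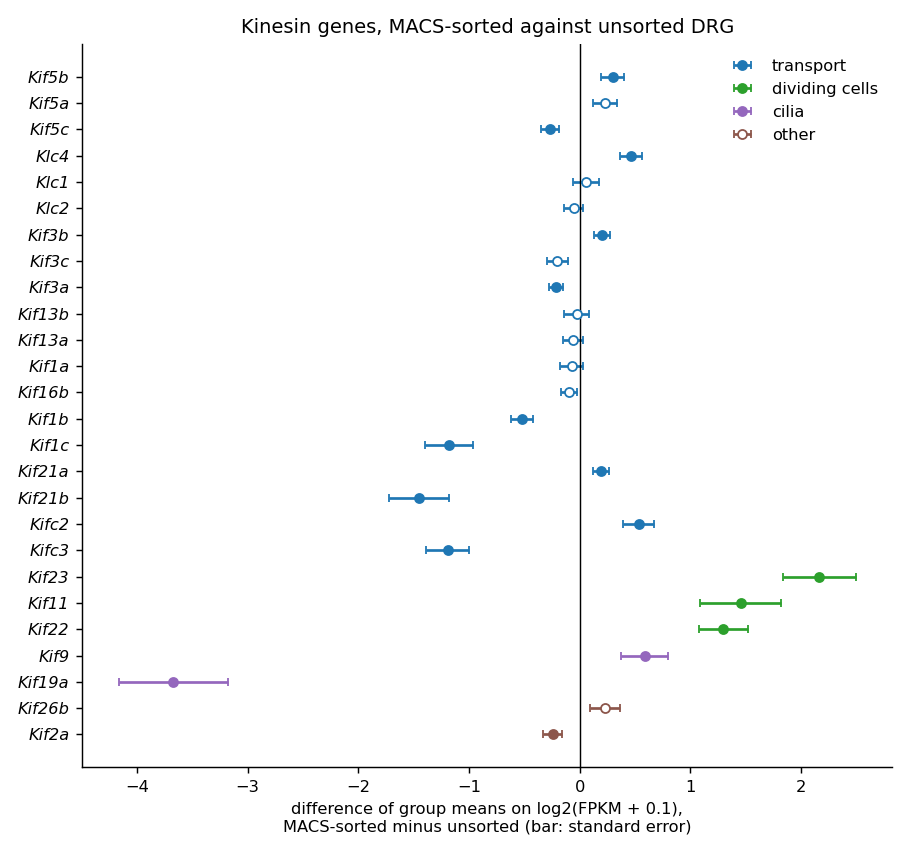
Log2-fold change from limma on log2(FPKM + 0.1), MACS-sorted minus unsorted, for the 26 kinesin genes tested, ordered by role, with bars for the standard error. Filled points have an adjusted p under 0.05 and open points do not. Transport kinesins lie between -1.45 and 0.53, the 3 kinesins of dividing cells lie between 1.30 and 2.16 and Kif19a lies lowest at -3.67.

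Kinesin-1 is the motor of fast axonal transport, and its 3 heavy chain genes did not move as one. Kif5b, the heavy chain found in most cell types, had 114, 113, 105 and 118 FPKM in unsorted samples and 148, 144, 155 and 111 FPKM in MACS-sorted samples. MACS-sorted replicate 4 lay within the unsorted range and the other 3 above it. Kif5c, a neuronal heavy chain, went the other way, with 151, 149.8, 153 and 145 FPKM in unsorted and 106, 136, 126 and 131 FPKM in MACS-sorted samples, and the groups did not overlap. The log2-fold change (with its standard error, SE) was 0.30 (SE 0.10, limma adjusted p = 0.040) for Kif5b and -0.27 (SE 0.08, limma adjusted p = 0.026) for Kif5c. Both calls were marginal. That for Kif5b was lost in 7 of 8 fits that left out 1 sample and kept only without MACS-sorted replicate 4 (log2-fold change 0.40), and that for Kif5c was lost in the 3 fits without unsorted replicate 1, 2 or 3, where the adjusted p was 0.060 to 0.066. It was also lost with median-ratio size factors (limma adjusted p = 0.066), with red blood cell genes removed (0.052) and in a fit on all 12 samples (0.11).

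Kif5a, a neuronal heavy chain whose variants cause hereditary axon disease, had 215, 218, 262 and 231 FPKM in unsorted and 290, 304, 273 and 224 FPKM in MACS-sorted samples. All but replicate 4 of the MACS-sorted samples exceeded the highest unsorted sample. Its log2-fold change of 0.23 had a 95% interval of -0.01 to 0.48 and an adjusted p of 0.11 from limma, which fell to 0.0098 without MACS-sorted replicate 4. Kif5a also passed under the 3 other scalings tried, with limma adjusted p of 0.042 for median-ratio size factors, 0.03 for quantile normalization and 0.045 with red blood cell genes removed. As a share of the summed Kif5 FPKM, Kif5a ranged over 40.2% to 42.9% for intact samples, 44.8% to 50.5% for unsorted samples and 48.1% to 53.3% for MACS-sorted samples. The Kif5c share was 29.8% to 31.1%, 29.3% to 31.5% and 19.4% to 28.1%, so that every MACS-sorted sample lay below every other sample. In these shares intact replicate 1 did not stand apart.

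**Figure D3:**
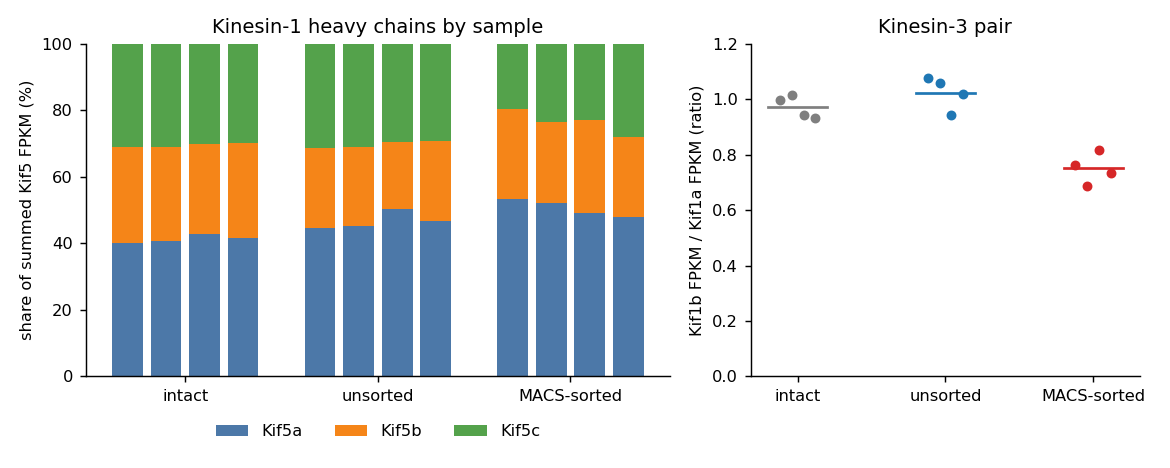
Left, share in percent of Kif5a, Kif5b and Kif5c in their summed FPKM, with 1 bar per sample in the order of replicates 1 to 4. Right, Kif1b FPKM divided by Kif1a FPKM, with 1 point per sample and a bar at the group mean. The Kif5c share and the Kif1b to Kif1a ratio are lower in every MACS-sorted sample than in any unsorted or intact sample.

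Among the light chains, Klc1 and Klc2 did not pass and Klc4 rose. Klc1 had 563, 568, 632 and 542 FPKM in unsorted and 627, 711, 581 and 496 FPKM in MACS-sorted samples, with overlapping groups and a log2-fold change of 0.06 (95% interval -0.20 to 0.31, limma adjusted p = 0.71). Klc2, a second light chain of neurons, gave -0.06 (95% interval -0.26 to 0.14, limma adjusted p = 0.63), and the sign of both values turned when single samples were left out. The Klc1 share of the summed light chain FPKM was 83.0% to 84.8% over all 12 samples. Klc4, a minor light chain, had 11.2, 10.5, 12.4 and 10.3 FPKM in unsorted and 16.9, 16.2, 15.3 and 13.0 FPKM in MACS-sorted samples. Its groups did not overlap, and its log2-fold change of 0.46 (SE 0.10, limma adjusted p = 0.0041) passed in all 8 fits with 1 sample left out. Klc4 was not called by the 3 criteria, since its log2 ratio of means was 0.47, but it was without MACS-sorted replicate 4 (0.54) and without unsorted replicate 3 (0.52). Its share of the summed light chain FPKM was 1.55% to 1.66% in unsorted, 1.93% to 2.27% in MACS-sorted and 1.90% to 2.34% in intact samples. Klc3 was listed at 0 in every sample, and for a gene listed at 0 throughout, a failed estimate cannot be told from no expression.

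Kinesin-2 motors carry membrane vesicles in axons and cargo in cilia. Kif3a, the shared subunit of the kinesin-2 trimer, had 58.4, 59.5, 61.4 and 57.5 FPKM in unsorted and 49.7, 53.7, 52.7 and 48.0 FPKM in MACS-sorted samples, with no overlap. The change was small, with a log2-fold change of -0.22 (SE 0.06, limma adjusted p = 0.015), and it passed in all 8 fits with 1 sample left out but not in a fit on all 12 samples (limma adjusted p = 0.26). Its partner Kif3b had 19.0 to 20.8 FPKM in unsorted and 20.7 to 25.2 FPKM in MACS-sorted samples, a log2-fold change of 0.20 with an adjusted p of 0.049 from limma that was lost in 7 of 8 fits with 1 sample left out and kept only without MACS-sorted replicate 4. For Kif3c, the neuronal partner, the log2-fold change was -0.20 (95% interval -0.42 to 0.01, limma adjusted p = 0.11). Kif17, a dendritic and ciliary motor of this family, had at most 1.27 FPKM in any sample.

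Kinesin-3 motors carry synaptic vesicle precursors, dense core vesicles and endosomes. Kif1a and Kif1b, close relatives that share cargo, had nearly equal levels in unsorted samples and parted in MACS-sorted samples. Kif1b had 184, 183, 201 and 194 FPKM in unsorted and 148, 128, 149 and 110.5 FPKM in MACS-sorted samples, with no overlap. Its log2-fold change was -0.52 (SE 0.10, limma adjusted p = 0.0021). The call by the 3 criteria rests on a log2 ratio of means of -0.51, which was -0.49 without MACS-sorted replicate 2, -0.43 without MACS-sorted replicate 4 and -0.48 without unsorted replicate 3, although the adjusted p was at most 0.0085 in all 8 such fits. The call was also lost with median-ratio size factors (log2-fold change -0.46) and with red blood cell genes removed (-0.48). Kif1a had 171, 173, 214 and 191 FPKM in unsorted and 193, 186, 183 and 150.2 FPKM in MACS-sorted samples, with overlapping groups. The log2-fold change of Kif1a was -0.07 (95% interval -0.30 to 0.16, limma adjusted p = 0.60). The ratio of Kif1b to Kif1a was 0.942 to 1.08 in unsorted, 0.934 to 1.02 in intact and 0.687 to 0.817 in MACS-sorted samples. In whole ganglia Kif1b had 95.4 FPKM in replicate 1, below every MACS-sorted sample, and 151.5 to 164 FPKM in the others, above them all. Its log2-fold change was -0.08 for MACS-sorted minus intact samples (SE 0.19, limma adjusted p = 0.78). For unsorted minus intact samples it was 0.44 (SE 0.16, limma adjusted p = 0.082). The large-diameter neuron markers, given above for the other groups, summed to 542.9 to 742.5 FPKM in whole ganglia. Their sum was lower in every MACS-sorted sample than in any unsorted or intact sample, and its part in the Kif1b result was not tested.

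Kif1c, a widely expressed kinesin-3 motor, was the member of this family that fell furthest. It had 6.18, 6.03, 5.20 and 5.96 FPKM in unsorted and 2.76, 1.76, 2.104 and 3.91 FPKM in MACS-sorted samples, so that the highest MACS-sorted value lay under the lowest unsorted value. The log2-fold change was -1.18 (SE 0.22, limma adjusted p = 0.0015), and the mean was 2.22 times higher in unsorted samples. In intact DRG replicate 1 had 13.8 FPKM and the other samples 6.82 to 7.36 FPKM. Schwann cell and fibroblast markers were also highest in intact replicate 1, with 4440 and 824 FPKM against 2449 to 3250 and 431 to 492 FPKM in the other intact samples, and lowest in MACS-sorted samples, and their part in the Kif1c result was not tested. Kif13a, Kif13b and Kif16b, which carry endosomal cargo, had 4.49 to 10.25 FPKM over all samples and log2-fold changes of -0.06, -0.03 and -0.10, all with adjusted p of 0.30 or above from limma. These signs turned under another scaling.

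Kif21a and Kif21b are kinesin-4 motors that also restrain microtubule growth. Kif21a was one of the most abundant kinesins, at 177 to 184 FPKM in unsorted and 188 to 225 FPKM in MACS-sorted samples, which did not overlap. Its log2-fold change was 0.19 (SE 0.07, limma adjusted p = 0.049), a call kept only without MACS-sorted replicate 4 among 8 fits with 1 sample left out. Kif21b was low, with 1.44, 1.33, 2.63 and 1.91 FPKM in unsorted and 0.484, 0.706, 0.476 and 0.700 FPKM in MACS-sorted samples. It was lower in every MACS-sorted sample, with a log2-fold change of -1.45 (SE 0.27, limma adjusted p = 0.0018), and was not called by the 3 criteria because of its level. It averaged enough to be tested only through the unsorted samples, and with no limit on level the adjusted p was 0.0023 from limma.

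The minus-end directed motors Kifc2 and Kifc3 moved in opposite directions. Kifc2, which is found in neurons, had 10.3, 11.0, 12.6 and 10.9 FPKM in unsorted and 13.2, 15.9, 15.0 and 21.8 FPKM in MACS-sorted samples. The groups did not overlap, and MACS-sorted replicate 4 was highest. The log2-fold change was 0.53 (SE 0.14, limma adjusted p = 0.013), and without MACS-sorted replicate 4 the log2 ratio of means was 0.39 and the 3 criteria were not met. In intact samples Kifc2 had 10.9, 15.9, 16.0 and 16.8 FPKM, which overlapped with the MACS-sorted samples. Between MACS-sorted and intact samples its log2-fold change was 0.14 (SE 0.18, limma adjusted p = 0.58). Kifc3, which acts at cell junctions and in Golgi positioning, had 7.02, 5.99, 6.85 and 6.96 FPKM in unsorted and 4.45, 2.57, 2.73 and 2.17 FPKM in MACS-sorted samples. It was lower in every MACS-sorted sample, with a log2-fold change of -1.19 (SE 0.19, limma adjusted p = 0.00078). Kifc2 shares 163 exonic bases with Cyhr1 on the opposite strand. The libraries were made with a directional kit, so that reads carry strand, but the sources used here do not state whether strand was used in estimating FPKM, so reads of overlapping genes may not be told apart.

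The 13 kinesins of dividing cells were low in the ganglion, with no value above 1.73 FPKM in intact and 1.01 FPKM in unsorted samples, and most were higher in MACS-sorted samples. Their summed FPKM was 3.51, 3.72, 3.18 and 3.04 in unsorted samples and 11.8, 7.72, 10.4 and 24.5 in MACS-sorted samples. Every MACS-sorted sum lay above every unsorted and every intact sum, the latter being 4.44 to 5.49. MACS-sorted replicate 4 was the highest of its group for 11 of the 12 members detected there, and replicate 2 the single lowest for 9.

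**Figure D4:**
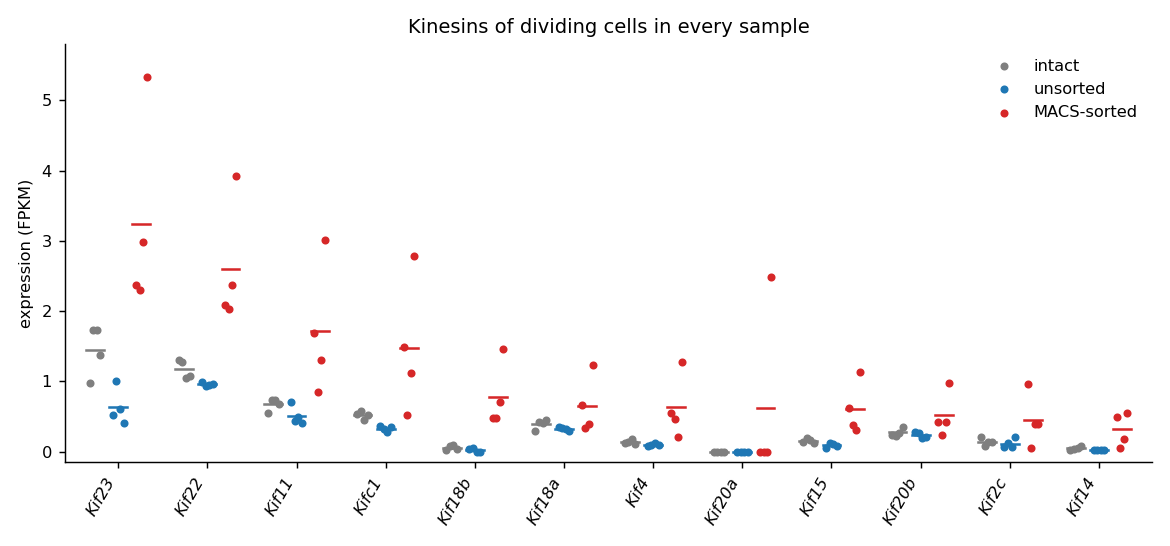
Expression in FPKM (linear axis) of the 12 kinesins of dividing cells detected in any MACS-sorted sample, with 1 point per sample and a bar at the group mean. Intact and unsorted points stay below 1.8 FPKM, and MACS-sorted replicate 4, the rightmost of its group, is highest for all but Kif2c.

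Kif23, a subunit of centralspindlin that acts in cytokinesis, had 0.523, 1.01, 0.605 and 0.403 FPKM in unsorted and 2.37, 2.30, 2.99 and 5.33 FPKM in MACS-sorted samples. The groups did not overlap, and the log2-fold change was 2.16 (SE 0.33, limma adjusted p = 0.00049). Kif22, a chromokinesin that moves chromosome arms, had 0.997, 0.934, 0.951 and 0.964 FPKM in unsorted and 2.08, 2.04, 2.38 and 3.92 FPKM in MACS-sorted samples. It too rose without overlap, with a log2-fold change of 1.30 (SE 0.22, limma adjusted p = 0.0010). Kif11, which slides spindle microtubules apart, had 0.706, 0.433, 0.499 and 0.415 FPKM in unsorted and 1.68, 0.850, 1.31 and 3.01 FPKM in MACS-sorted samples. Its log2-fold change was 1.45 (SE 0.37, limma adjusted p = 0.0092). Kif11 fell under the limit for testing without MACS-sorted replicate 4, and without the limit its call stayed.

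These 3 were the only kinesins of dividing cells that averaged 1 FPKM or more in this comparison, and each reached it only through the MACS-sorted samples, so the set was also fitted with no limit on level. Without it 8 of 12 members were higher at an adjusted p under 0.05 from limma and 0 lower, where 13.6% of the 17657 genes so tested were higher and 24.7% lower. The 8 were Kif11, Kif14, Kif15, Kif18b, Kif22, Kif23, Kif4 and Kifc1, and the remaining members did not pass, with Kif2b listed at 0 in every sample. The same 8 lay above all unsorted samples in every MACS-sorted sample. Over all 41 kinesin genes detected, 11 lay above without overlap and 10 below, against 13.8% and 25% of all genes, and by adjusted p 11 were higher and 10 lower. The list with no limit on level was chosen after its values were seen. All 8 remained when any 1 sample was left out, and without MACS-sorted replicate 2 there were 10, with Kif20b and Kif2c added. These levels stand for few fragments. For Kif18b, named after its values were seen, they come to at most 3 fragments in any unsorted sample and to at most 23 to 74 in MACS-sorted samples, with all exonic bases counted.

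Kifc1, a minus-end motor that bundles spindle microtubules, had 0.371, 0.323, 0.279 and 0.350 FPKM in unsorted and 1.49, 0.528, 1.12 and 2.78 FPKM in MACS-sorted samples. Reads of its near-identical paralog Kifc5b may be split with it. Kif20a, which acts late in cytokinesis, was listed at 0 in every sample but MACS-sorted replicate 4, at 2.48 FPKM, and since it shares 1271 exonic bases with Cdc23 on the opposite strand that value is uncertain.

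A list of 20 cell division genes outside the naming rule was read beside them, 1 of which, Cenpe, also encodes a kinesin motor. With no limit on level, 16 of the 20 were higher and 0 lower in MACS-sorted than in unsorted samples by adjusted p under 0.05 from limma, where 13.6% of all genes were higher and 24.7% lower, and the other 4 did not pass. The 20 genes summed to 11.0 to 12.7 FPKM in unsorted samples and 48.1, 29.3, 39.4 and 112 in MACS-sorted replicates 1 to 4, the same order of samples as for the kinesins of dividing cells. Red blood cell markers summed to 1678, 2532, 12540 and 15360 FPKM in these replicates, with all 6 tested markers higher than in unsorted samples. Markers of endothelial cells summed to 29.4 to 36.3 FPKM in unsorted and 30.0, 9.72, 26.1 and 45.5 FPKM in MACS-sorted samples, with 0 of 5 past an adjusted p of 0.05 from limma. The part of any of these cells in the levels of the dividing-cell kinesins was not tested.

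**Figure D5:**
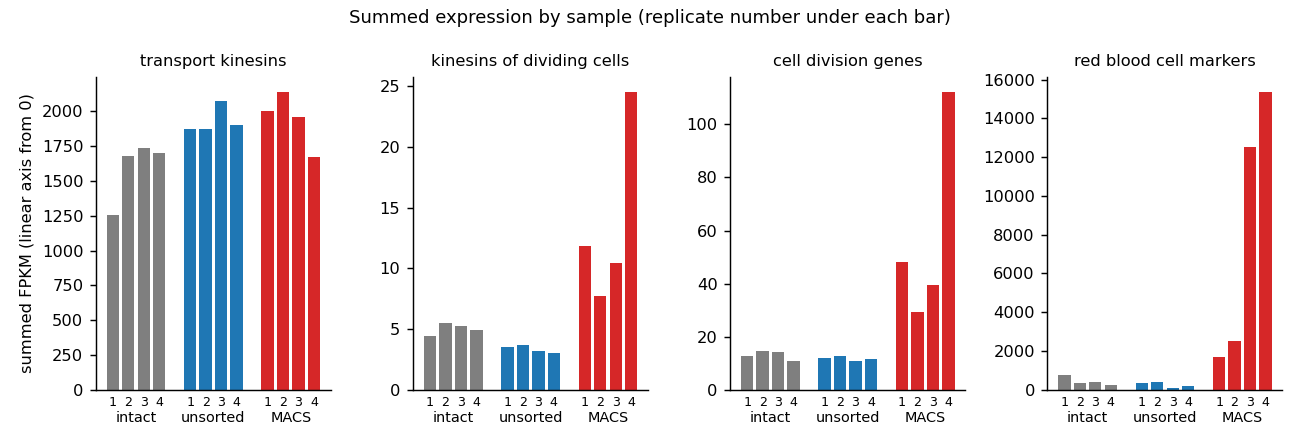
Summed FPKM per sample (linear axes from 0) of the transport kinesins, the kinesins of dividing cells, 20 cell division genes outside the naming rule and the red blood cell markers, with 1 bar per sample and its replicate number beneath. The dividing-cell kinesins and the cell division genes are highest in MACS-sorted replicate 4 and lowest in replicate 2 within that group, while the red blood cell markers are lowest in replicate 1.

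Many genes of cell division share promoter elements, the CHR (here TTTGAA or TTCGAA) and the CCAAT box. The 150 bases before the RefSeq start were searched for both on both strands, with 35 of the 44 kinesin genes in the table used (GRCm38). The CHR-like letters stood in 4 of the 12 dividing-cell members with an entry, the CCAAT box in 8 and both in 2. Of 14 transport members, 1 held the CHR-like letters, 4 the CCAAT box and 0 both. That 1 was Kif1a, and its matching window lay inside the listed span of the gene, as did that of Kif2c among the dividing-cell members. A member with several windows counted if any of them matched. Counted per window, over all 32851 windows the shares were 9.70%, 24.5% and 2.43%. These windows are shown for 3 dividing-cell kinesins that were higher in MACS-sorted samples and for 2 abundant transport kinesins with neither element, in lower case with the elements in capitals, in mm10 coordinates. Kif18b was added after its values were seen.
Kif11, chr19:37376232-37376381, plus strand: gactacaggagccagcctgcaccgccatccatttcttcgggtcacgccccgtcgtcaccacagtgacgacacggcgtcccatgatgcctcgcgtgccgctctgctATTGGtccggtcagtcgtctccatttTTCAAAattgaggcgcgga
Kif18b, chr11:102925125-102925274, minus strand: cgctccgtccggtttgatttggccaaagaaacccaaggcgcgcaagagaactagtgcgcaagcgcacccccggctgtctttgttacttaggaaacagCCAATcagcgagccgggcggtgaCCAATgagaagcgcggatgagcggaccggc
Kif23, chr9:61946800-61946949, minus strand: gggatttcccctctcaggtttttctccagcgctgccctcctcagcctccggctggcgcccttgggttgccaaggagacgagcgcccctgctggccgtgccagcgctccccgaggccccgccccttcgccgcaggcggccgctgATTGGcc
Kif21a, chr15:91049952-91050101, minus strand: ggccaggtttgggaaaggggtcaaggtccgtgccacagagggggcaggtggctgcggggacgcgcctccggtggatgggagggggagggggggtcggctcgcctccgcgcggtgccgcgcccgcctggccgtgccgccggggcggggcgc
Kif5c, chr2:49619136-49619285, plus strand: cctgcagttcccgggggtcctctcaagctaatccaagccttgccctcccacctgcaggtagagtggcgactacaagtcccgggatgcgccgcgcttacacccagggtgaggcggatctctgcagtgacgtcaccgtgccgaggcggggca
In Kif11 the CHR-like letters begin 19 bases before the start and the CCAAT box 45 bases before it, both on the minus strand. Kif18b holds the CCAAT box at 53 and 30 bases, and Kif23 at 7 bases. These matches describe the letters of the windows and say nothing of the factors that may bind there.

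With no limit on level, 3 of the 6 kinesins of cilia passed an adjusted p of 0.05 from limma. These 3, Kif19a, Kif6 and Kif7, were all lower in MACS-sorted than in unsorted samples. Of all genes so tested 24.7% were lower and 13.6% higher. Kif9, Kif24 and Kif27 did not pass in that fit, the last 2 at 0.336 FPKM or less in every sample. Kif19a, which sets the length of motile cilia, had 8.85, 6.36, 7.74 and 6.20 FPKM in intact, 6.07, 5.74, 4.57 and 6.48 FPKM in unsorted and 0.312, 0.173, 0.158 and 1.35 FPKM in MACS-sorted samples. The highest MACS-sorted value, in replicate 4, was far below any other sample. Against unsorted samples this was a log2-fold change of -3.67 (SE 0.49, limma adjusted p = 0.00022), and the means differed 11.5-fold. Without MACS-sorted replicate 4 the log2 ratio of means was -4.74, against -3.52 with all samples. The satellite glia, Schwann cell and fibroblast markers were also lower in MACS-sorted samples, and among the MACS-sorted samples Schwann cell markers summed to 566, 516, 588 and 1193 FPKM, highest in the replicate in which Kif19a was highest. Their part in the Kif19a result was not tested. Kif7, a regulator of Hedgehog signalling that was singled out after its values were seen, had 0.369 to 0.598 FPKM in unsorted samples and was listed at 0 in 3 MACS-sorted samples and at 0.0466 FPKM in replicate 4. Kif6, likewise, had 0.0676 to 0.186 FPKM in unsorted and was listed at 0 in all MACS-sorted samples. Both passed an adjusted p of 0.05 from limma with no limit on level. Kif9 had 0.827 to 1.17 FPKM in unsorted and 1.13 to 1.67 FPKM in MACS-sorted samples. With the limit on level its log2-fold change was 0.59, with an adjusted p of 0.045 from limma that was lost in 6 of 8 fits with 1 sample left out. It reached that limit only through the MACS-sorted samples, and without the limit the adjusted p was 0.052 from limma.

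Of the 4 other members, Kif2a, which disassembles microtubule ends and trims axon branches, had 28.4 to 31.2 FPKM in unsorted and 21.7 to 27.4 FPKM in MACS-sorted samples. Its log2-fold change of -0.24 (SE 0.08, limma adjusted p = 0.037) was lost in 4 of 8 fits with 1 sample left out, and it shares 1229 exonic bases with Dimt1 on the opposite strand. Kif26b had 3.88 to 4.42 FPKM in unsorted and 3.80 to 5.65 FPKM in MACS-sorted samples, with a log2-fold change of 0.23 (95% interval -0.08 to 0.53, limma adjusted p = 0.20). Kif26a stayed between 0.492 and 1.05 FPKM in every sample, and Kif12 was listed at 0 throughout.

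Between unsorted and intact DRG fewer kinesins differed. Of 25 tested among 12392 genes, 1 was higher by the 3 criteria (4.29% of all genes) and 0 lower (2.76%), and by adjusted p alone 4 were higher (14.8%) and 2 lower (7.79%). The median log2-fold change was 0.16 over the kinesin genes and 0.01 over all genes tested. Kif3c, the neuronal kinesin-2 subunit, rose from 37.9, 44.4, 45.0 and 46.5 FPKM in intact to 55.9, 57.9, 65.3 and 60.9 FPKM in unsorted samples without overlap, a log2-fold change of 0.47 (SE 0.09, limma adjusted p = 0.0077). Kifc3 had 4.21, 5.73, 4.66 and 4.24 FPKM in intact samples, all below the unsorted samples, and a log2-fold change of 0.51 (SE 0.11, limma adjusted p = 0.014). Its log2 ratio of means was 0.51 and came to 0.46 without intact replicate 1, 0.46 without intact replicate 4, and 0.49, 0.50 and 0.49 without unsorted replicates 1, 3 and 4, so that the 3 criteria were then not met. The light chains Klc1 and Klc2 were higher by 0.27 and 0.31 on the log2 scale (adjusted p = 0.033 and 0.036 from limma), calls lost in 7 and 6 of 8 fits with 1 sample left out. Of the 8 pan-neuronal markers, 4 were higher in unsorted samples and 0 lower, and all 5 fibroblast markers were lower. All 5 endothelial markers, 3 of 5 large-diameter neuron markers, 2 of 6 satellite glia markers and 2 of 7 nociceptor markers were higher, with 0 lower. Of 5 macrophage markers 4 were lower and 0 higher, and 0 of 6 Schwann cell and 0 of 4 red blood cell markers tested passed. Their part in the kinesin values was not tested.

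Kif13b and Kif23 were lower in unsorted than in intact samples. Kif13b had 8.52, 9.28, 10.25 and 9.18 FPKM in intact and 6.87, 6.75, 7.17 and 7.76 FPKM in unsorted samples without overlap (log2-fold change -0.38, SE 0.08, limma adjusted p = 0.013). Kif23 had 0.982, 1.73, 1.73 and 1.38 FPKM in intact samples, and the unsorted values given above overlapped with them at 1 sample. Its log2-fold change was -1.11 (SE 0.29, limma adjusted p = 0.026), and it was under the limit for testing in 3 fits and lost in 3 of the other 5 with 1 sample left out. Kif23 reached that limit only through the intact samples, and with no limit on level the adjusted p was 0.029 from limma. The counts in this comparison depended on intact replicate 1. Without it 8 members were higher and 6 lower by adjusted p, with Kif1b, Kif21a, Kif2a and Kif5a gained among the higher and Kif13a, Kif1c, Kif5b and Kifc2 among the lower, and by the 3 criteria Kifc2 was lower (log2 ratio of means -0.53).

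The comparison of MACS-sorted with intact samples shares its samples with those above, so its values stand beside them with no test of likeness. Of 27 kinesin genes tested among 12234 genes, 1 was higher by the 3 criteria (7.54% of all genes) and 2 lower (10.7%), and by adjusted p alone 6 were higher (14.1%) and 5 lower (20.6%). Kif5a was the gene called higher, with 118.5, 186, 196 and 187 FPKM in intact samples and 224 to 304 FPKM in MACS-sorted samples, with no overlap. The log2-fold change was 0.68 (SE 0.18, limma adjusted p = 0.014), and the log2 ratio of means was 0.66 with all samples and 0.52 without intact replicate 1. Kif19a (-4.01, SE 0.49, limma adjusted p = 0.00023) and Kif1c (-1.70, SE 0.29, limma adjusted p = 0.0015) were the genes called lower. Kif22 was higher by 1.04 (SE 0.23, limma adjusted p = 0.0074) and Kif23 by 1.05 (SE 0.29, limma adjusted p = 0.020). By adjusted p alone Kif11, Kif21a and Klc4 were also higher, and Kif13b, Kif21b and Kifc3 lower. Of these 6, Kif21b alone passed in every fit with 1 sample left out in which it was tested. Kif11 and Kif21b reached the limit for testing only through the group in which each was higher. With no limit on level their adjusted p was 0.042 and 0.0046 from limma.

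Dynein carries cargo back toward the cell body, and adaptors couple kinesins to their cargo. Of 23 dynein and dynactin genes tested, 5 were higher and 3 lower in MACS-sorted than in unsorted samples, with a median log2-fold change of 0.01. Of 18 adaptor genes, 3 were higher and 4 lower, with a median of -0.06. Over all genes tested 18.8% were higher and 27.7% lower. The median of all genes tested was -0.04 and that of the transport kinesins -0.06. Between unsorted and intact samples 6 adaptor genes were higher and 1 lower with a median of 0.27, and 6 dynein and dynactin genes were higher and 0 lower with a median of 0.11, where 14.8% of all genes tested were higher and 7.79% lower. The median of the transport kinesins there was 0.27, and the median of all genes tested was 0.01.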

How the data were processed

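The authors aligned 100-base reads of polyA RNA to mm10 with TopHat2, merged lanes with SAMtools and estimated FPKM per gene with Cufflinks 2.1.1. The deposited values are FPKM, not counts, and depth was only estimated from them. All 12 columns were matched to samples by name, and 0 columns were left unmatched. Whether strand was used in the estimate is not given in the sources used here. Differences were tested with limma 3.58.1 in R 4.3.3, with an intensity trend, two-sided, on log2(FPKM + 0.1), over genes that averaged 1 FPKM or more in the 8 samples compared, with Benjamini-Hochberg adjustment. Fold changes on this scale understate those of low genes. The study's thresholds were kept, with limma in place of its test, which needs aligned reads. The study also removed genes that were raised in MACS-sorted samples and well expressed in a published red blood cell dataset. No such genes were removed in the main fits here, so the shares over all genes still hold them. The p-values measure the spread between samples, which were pools of mice in 2 groups. Unsorted replicates 1 and 2 were very alike and were kept as 2 samples, with their average as an alternative. Kinesin genes that averaged 1 FPKM or more in any group were named, and others were given by range or were singled out after their values were seen. The members and gene lists were chosen with earlier results of these data known. The fit was tested on simulated data. Other pseudocounts, filters, scalings, fits and samples left out were tried. An overlap of 1 kinesin gene with a neighbouring gene is not reported here.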

Additional observations from a re-analysis of the deposited data

Results flagged for a closer look

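In 81 groups of 4 samples, from the 27 kinesin genes examined, 13 had 1 sample far from the other 3 by Dixon's criterion, and chance alone flags about 1 in 20 groups. Intact replicate 1 was the sample apart in 9 of the 13. It lay below the other intact samples for Kif1a (95.65 against 161.8 to 171.8 FPKM), Kif21a (98.5 against 160.1 to 166.6 FPKM), Kif5a (118.5 against 186 to 196 FPKM), Kif5b (84.8 against 123.5 to 131 FPKM) and Kif5c (91.8 against 134 to 142 FPKM). It was also below them for Kif16b (6.52 against 9.03 to 9.45 FPKM), Kif9 (0.865 against 1.295 to 1.34 FPKM) and Kifc2 (10.9 against 15.9 to 16.8 FPKM), and above them for Kif1c (13.8 against 6.82 to 7.36 FPKM). Summed markers of Schwann cells, fibroblasts and red blood cells were also highest in intact replicate 1, and their part in these values was not tested.

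The remaining 4 were in other samples. Kif13a had 4.49 FPKM in MACS-sorted replicate 2 against 5.22 to 5.32 FPKM in the others, and Kif19a had 1.35 FPKM in MACS-sorted replicate 4 against 0.158 to 0.312 FPKM. Kifc3 had 5.99 FPKM in unsorted replicate 2 against 6.85 to 7.02 FPKM, and Klc2 had 114 FPKM in unsorted replicate 3 against 96.6 to 97.7 FPKM.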

How the results depend on the processing

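Between MACS-sorted and unsorted samples, 1 kinesin gene was higher and 4 lower by the 3 criteria. With a mean of at least 5 FPKM required, 1 was lower, since 3 were no longer tested. With median-ratio size factors, quantile normalization or red blood cell genes removed 2 were higher, with Klc4 added, and 3 were lower under the first and last of these, without Kif1b. By adjusted p alone 9 were higher and 8 lower. With 1 sample left out, 1 to 2 were higher and 3 to 4 lower, and 8 to 10 kinesins of dividing cells were higher with no limit on level. Quantile normalization moved the median of all genes by 0.14 and the share of calls that were higher from 39.5% to 51.8%. The log2-fold changes that changed sign were all far from the threshold. With median-ratio size factors they were 0.0027 for Kif13a, 0.032 for Kif13b and 0.0062 for Klc2, with quantile normalization 0.15 for Kif13a, 0.13 for Kif13b and 0.039 for Kif16b, and with red blood cell genes removed 0.008 for Kif13b. With 1 sample left out, Kif13b ran from -0.12 to 0.035, Kif1a from -0.11 to 0.0083, Klc1 from -0.025 to 0.15 and Klc2 from -0.12 to 0.0026.

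Between unsorted and intact samples 1 was higher and 0 lower. In a fit on all 12 samples 0 were higher, by adjusted p alone 4 were higher and 2 lower, and with 1 sample left out 0 to 1 were higher and 0 to 1 lower. Quantile normalization moved the share of calls that were higher from 60.8% to 50.8%. Between MACS-sorted and intact samples 1 was higher and 2 lower. With a mean of at least 5 FPKM 1 was lower, with the 3 other scalings 2 were higher, by adjusted p alone 6 were higher and 5 lower, and with 1 sample left out 1 to 2 were higher and 2 to 3 lower. Quantile normalization moved the median of all genes there by 0.17 and the share of higher calls from 41.3% to 51.3%. Where no cause is given, it was not tested.

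Samples of different groups share a replicate number only, and the correlation of same-numbered deviations was -0.14 to 0.07. With the replicate block 1 gene was higher and 4 lower between MACS-sorted and unsorted samples, and it changed no call by the 3 criteria in any comparison. By adjusted p alone the block left 5 higher and 7 lower, and a fit on all 12 samples 6 higher and 5 lower, without Kif21a, Kif2a, Kif3a, Kif3b, Kif5b and Kif5c. FPKM carries no counts, so the error of low levels was not computed.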
